A study of Homo sapiens with 6 samples.

Results

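Most SLC25 genes encode mitochondrial carriers, proteins that move metabolites, nucleotides, phosphate, cofactors and iron across the inner mitochondrial membrane. Here the family was followed in 786-O cells after knockdown of NFE2L3. Members were taken by symbol alone, as every gene whose symbol is SLC25A and a number, which gave 48 of the 56303 genes in the count table. 40 of the 48 members had enough reads to be tested, among 19916 tested genes in all. Relatives under other symbols (UCP1, UCP2, UCP3, MTCH1 and MTCH2) are described separately.

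The RNA-seq held 3 libraries of 786-O cells given a control siRNA and 3 of 786-O cells given an siRNA against NFE2L3, a transcription factor of the cap'n'collar family. 786-O is an established line from a clear cell renal carcinoma that lacks functional VHL, and both groups share this background. Controls carry the time label 0 h and knockdown cells 48 h, so any effect of time cannot be told apart from that of the siRNA. The genotype label names NFE2L3 in knockdown replicate 1 and runs on to other numbers in knockdown replicates 2 and 3. The title and source name give NFE2L3 for all 3, and NFE2L3 reads were low in each of them. The methods of the study speak of at least 3 independent trials in general, without naming the sequencing, and the labels do not say whether these libraries came from separate cultures, so the variation that the p-values measure may be technical. Which of the designed siRNAs was sequenced is not stated.

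Each library held between 51828446 and 57391929 counted reads. NFE2L3 itself was at 116, 113 and 115 CPM (read counts per TMM-adjusted library size) in the control libraries and at 19.5, 19.1 and 20.8 CPM in the knockdown libraries, which is -2.54 on the log2 scale (standard error, SE, 0.0482, adjusted p = 3.98e-22 by the edgeR quasi-likelihood test). All 8 markers of a renal carcinoma line were detected, with PAX8 at 240.5 CPM in control cells, although CA9 was near 0 (0.0178 CPM). Summed over the 8, they ran from 2402 to 2460 CPM in control and from 2184 to 2278 CPM in knockdown cells. VIM made up most of this sum, at 1349 CPM in control and 1262 CPM in knockdown cells. At an edgeR adjusted p under 0.05, PAX8, KRT8, KRT18 and CDH6 were lower and EPAS1 was higher, whereas PAX2 and VIM did not pass. The part of the marker differences in the carriers' values was not tested. Markers of blood, endothelial and fibroblast cells reached at most 0.899 CPM in any library, and CDH5 had no read. Mitochondrially encoded transcripts took 4.0% to 4.39% of the reads.

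A mitochondrial carrier has a fold of repeated membrane-spanning segments, and most work as exchangers, so that 1 solute leaves the matrix as another enters. The ADP/ATP carriers and the phosphate carrier supply the ATP synthase. The aspartate/glutamate and oxoglutarate/malate carriers form the malate-aspartate shuttle, which brings reducing equivalents of cytosolic NADH into the matrix. The citrate carrier feeds fatty acid synthesis in the cytosol, and the glycine carrier and the mitoferrins supply heme and iron-sulfur cluster synthesis. The ATP-Mg/phosphate carriers SLC25A23, SLC25A24 and SLC25A25 have a calcium-binding domain in front of the carrier and set the size of the matrix adenine nucleotide pool.

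Promoters are shown for 3 carriers that fell: SLC25A23, with the largest change of the family, and SLC25A39 and SLC25A11, each of which holds a motif searched for here. The sequences are from RefSeq (GRCh38.p14), run 5′ to 3′ on the strand of the gene, and cover 250 bases before and 50 bases after the annotated start. Capitals mark matches to TGACNNNGC, the core of the antioxidant response element that cap'n'collar factors bind with small MAF proteins, or to the consensus site of nuclear respiratory factor NRF1. SLC25A23 lies at chr19:6459743-6460042 (minus strand), SLC25A39 at chr17:44324774-44325073 (minus strand) and SLC25A11 at chr17:4939997-4940296 (minus strand).
SLC25A23: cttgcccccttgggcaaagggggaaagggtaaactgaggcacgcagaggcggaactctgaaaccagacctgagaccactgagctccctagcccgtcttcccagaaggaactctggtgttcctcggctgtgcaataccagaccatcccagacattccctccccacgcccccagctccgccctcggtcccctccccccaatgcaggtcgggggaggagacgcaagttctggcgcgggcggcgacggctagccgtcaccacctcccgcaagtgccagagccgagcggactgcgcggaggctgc
SLC25A39: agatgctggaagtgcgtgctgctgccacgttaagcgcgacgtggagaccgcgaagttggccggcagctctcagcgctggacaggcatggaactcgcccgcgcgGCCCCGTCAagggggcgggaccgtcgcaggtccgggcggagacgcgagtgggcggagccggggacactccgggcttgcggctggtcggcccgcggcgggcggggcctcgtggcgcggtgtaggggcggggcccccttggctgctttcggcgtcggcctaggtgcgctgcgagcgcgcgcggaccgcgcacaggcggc
SLC25A11: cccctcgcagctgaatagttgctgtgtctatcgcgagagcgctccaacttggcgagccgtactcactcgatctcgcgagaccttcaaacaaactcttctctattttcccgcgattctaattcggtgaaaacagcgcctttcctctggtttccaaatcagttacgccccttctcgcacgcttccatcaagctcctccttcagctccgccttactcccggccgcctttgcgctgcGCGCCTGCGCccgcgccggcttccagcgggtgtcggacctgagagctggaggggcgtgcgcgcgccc
The window of SLC25A23 has no capitals, so it holds neither motif, and the exons counted for this gene reach further upstream than the RefSeq start used here. In SLC25A39 the antioxidant response core reads on the strand opposite to the gene, from position -147 relative to the start, and in SLC25A11 the NRF1 match begins at position -17. Both strands were searched. Of the 35116 promoters in the RefSeq table, 13.3% held TGACNNNGC and 5.78% held the NRF1 site. Windows were found for 40 of the 48 carriers, which had 50 windows between them after the duplicate of SLC25A6 on Y was left out. TGACNNNGC was in 9 of these windows (18%) and the NRF1 site in 5 of the 50, and none held both. Of the 7 carriers that fell, 6 had a window, and besides SLC25A39, SLC25A22 held TGACNNNGC in 1 of its 4 windows. SLC25A12 and SLC25A38, which also fell, held neither motif. TGACNNNGC was also found for SLC25A1, SLC25A5, SLC25A13, SLC25A24, SLC25A25, SLC25A45 and SLC25A46, none of which fell at an adjusted p under 0.05. The NRF1 site was also found for SLC25A3 and SLC25A51, which did not pass, and for SLC25A31 and SLC25A52, which were not tested. A match is only a stretch of letters and was not tested for binding.

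In control cells the family ranged over several orders of magnitude. Levels between genes are given as RPKM, which is CPM divided by the exon length in kilobases. SLC25A6, an ADP/ATP carrier, was the highest at 43.3 ± 1.99 RPKM (SD, n = 3), followed by its relative SLC25A5 at 18.9 ± 0.762 RPKM and SLC25A32, the folate and FAD carrier, at 17.2 ± 0.679 RPKM. These 3 carriers stood apart from each other and from the rest in every control library and made up 36.5% ± 1.16 of the summed RPKM of the family. The citrate carrier SLC25A1 came next at 12.4 ± 0.998 RPKM and was not separated from the glycine carrier SLC25A38 at 11.8 ± 0.557 RPKM. The pyrimidine nucleotide carrier SLC25A36 (10.3 ± 0.541 RPKM), the phosphate carrier SLC25A3 (10.1 ± 0.590 RPKM) and the mitoferrins SLC25A37 (9.41 ± 0.815 RPKM) and SLC25A28 (9.02 ± 0.0639 RPKM) formed a chain of overlapping ranges. At the other end, SLC25A45 was the lowest of the tested members, at 0.0778 ± 0.00891 RPKM, not separated from SLC25A34 at 0.0840 ± 0.0452 RPKM.

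**Figure D1:**
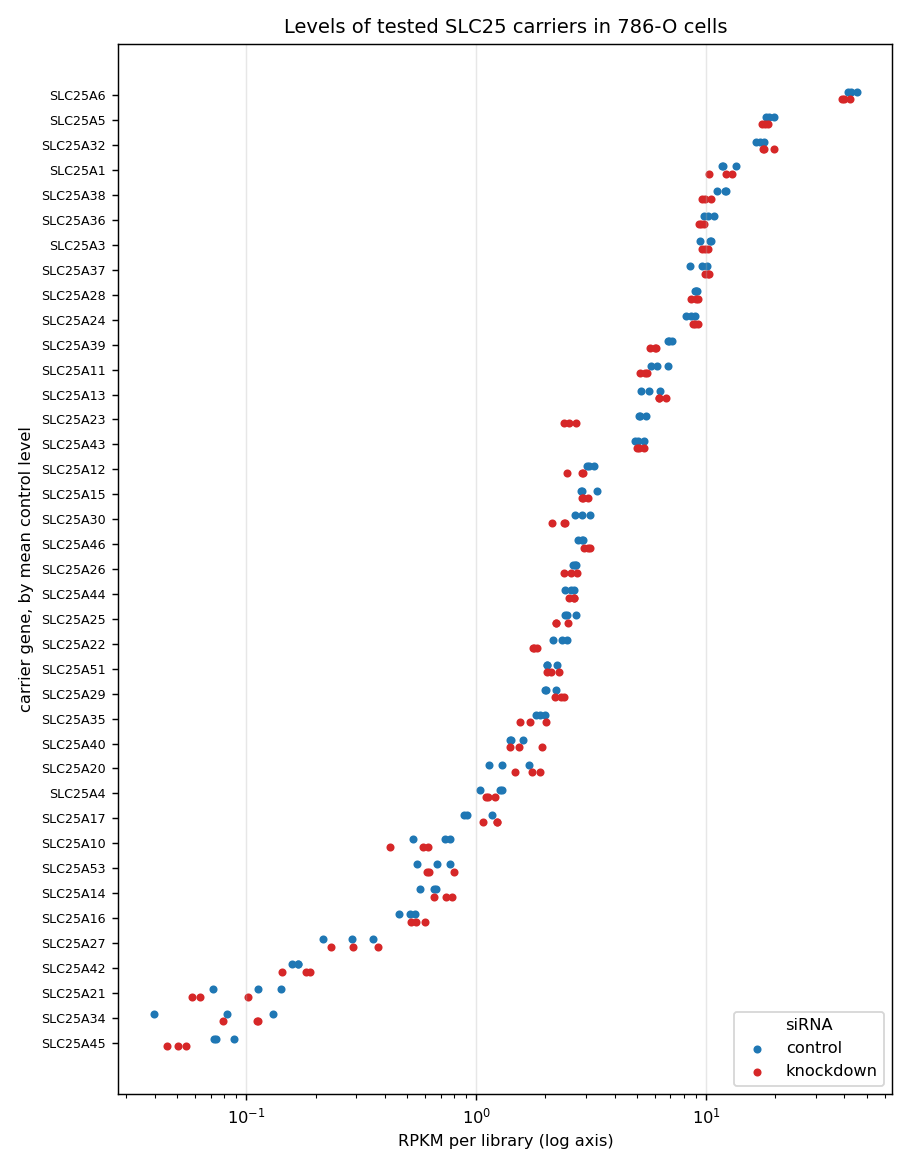
RPKM of tested SLC25 carriers, 1 left out (log x axis), in each of the 3 control (blue) and 3 NFE2L3 knockdown (red) libraries, ordered by the mean control level. Most pairs of groups lie on top of each other, from SLC25A6 at 43.3 RPKM down to SLC25A45 at 0.0778 RPKM in control cells, and SLC25A23 has the clearest gap.

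The remaining 8 members (SLC25A2, SLC25A18, SLC25A31, SLC25A33, SLC25A41, SLC25A47, SLC25A48 and SLC25A52) had between 0 and 12 reads per library and were not tested. SLC25A48 had no read in any library. Several of these have a close relative that was abundant: SLC25A33 had at most 2 reads per library, whereas SLC25A36, the other pyrimidine nucleotide carrier, had between 4648 and 5818. SLC25A18 had between 5 and 12 reads and the other glutamate carrier, SLC25A22, between 426 and 669. RPKM divides by the summed exon length of all annotated transcripts (8896 bases for SLC25A3), which lowers the level of genes with many alternative exons. Reads shared with processed copies can also be lost in counting: the table lists 9 pseudogenes of SLC25A5 and 6 of SLC25A6, none with more than 6 reads in a library, and how reads with several matches were treated is not stated.

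After NFE2L3 knockdown, 7 of the 40 tested carriers were lower at a Benjamini-Hochberg adjusted p under 0.05 (edgeR, adjusted over all tested genes), and none was higher. Over all tested genes, 14.0% were lower and 12.7% higher by the same rule, so the share of carriers that fell, 17.5%, was close to the background. No carrier was called higher with DESeq2 either, and at an unadjusted p under 0.05 in edgeR, 10 carriers were lower and 4 higher. No share over all tested genes is given for these other rules, so the counts are not read as a lean of the family. The median log2 fold change of the 40 carriers was -0.017, beside -0.00066 for all tested genes, and 28 of the 40 lay within 0.2 of zero on the log2 scale. The summed level of all 48 members was 217.5 ± 3.70 RPKM in control cells and 207.9 ± 2.49 RPKM in knockdown cells (SD, n = 3 each). Counts are relative to the library total, so less RNA of these genes per cell and fewer cells that express them cannot be told apart.

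**Figure D2:**
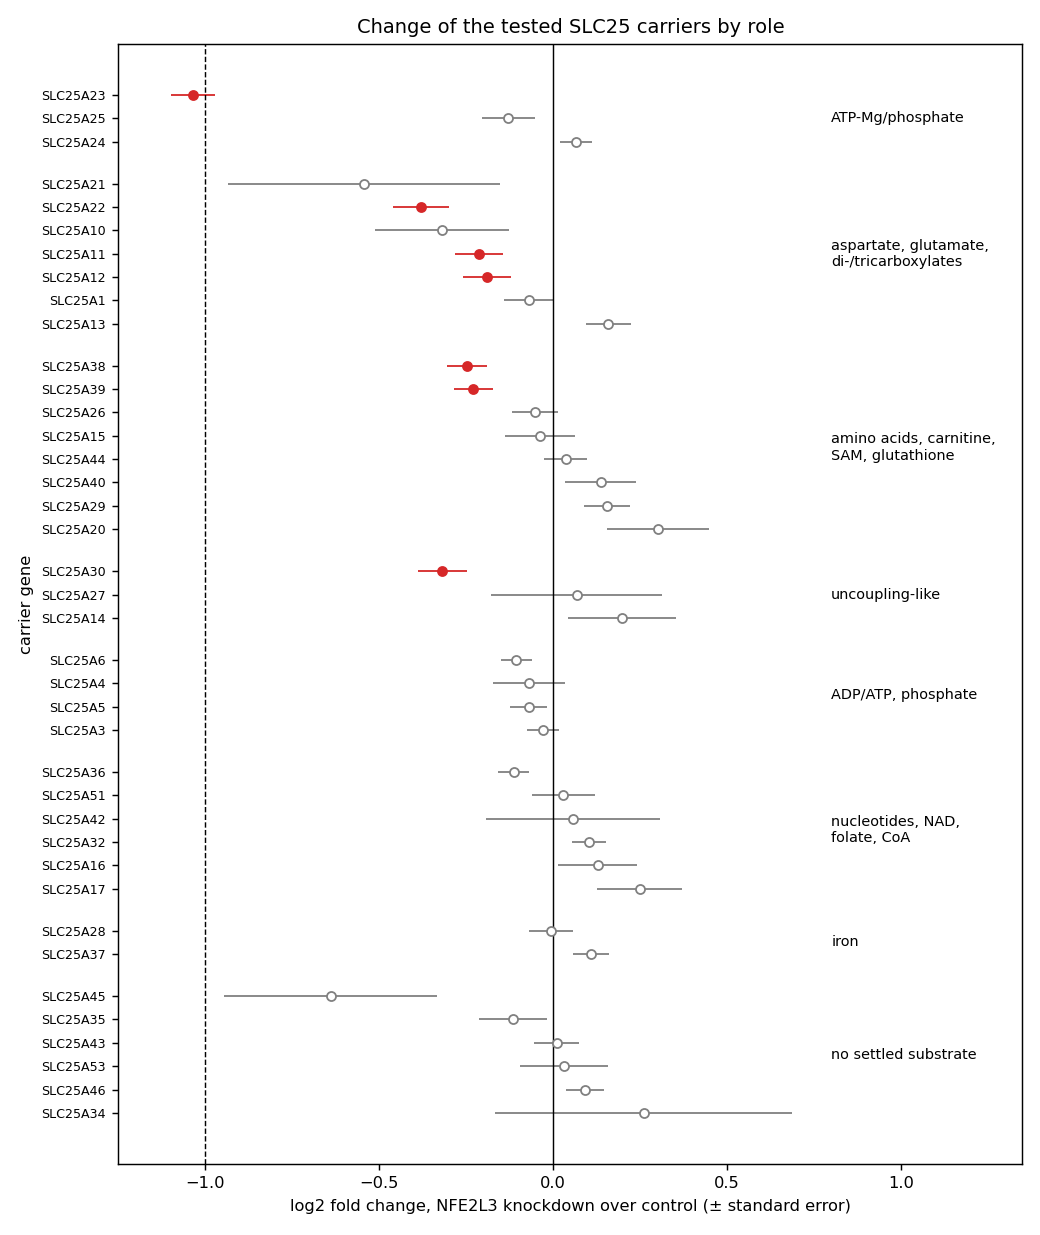
Log2 fold change (x axis, knockdown relative to control, 3 libraries per group) of the tested carriers, 1 left out, grouped by the cargo named at the right. Points are edgeR estimates with standard errors, filled red at an adjusted p under 0.05 and open grey otherwise, with a dashed line at a 2-fold fall, which SLC25A23 alone reached at -1.04.

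The largest change was in SLC25A23. SLC25A23 (chromosome 19, 6436079 to 6465203, minus strand, GRCh38) was at 26.6, 25.1 and 24.7 CPM in control and 13.2, 11.7 and 12.4 CPM in knockdown libraries. Every knockdown library lay far below the lowest control. The mean went from 25.5 ± 0.988 to 12.4 ± 0.796 CPM (SD, n = 3 each), which is 48.8% of control (log2 fold change -1.04, SE 0.0641, edgeR adjusted p = 1.21e-11). It was the only carrier with a p under 0.05 and a fold of at least 2, the cutoffs stated in the methods of the study, which 0.377% of tested genes met in this direction and 0.723% in the other. The fold fell short of 2 without knockdown replicate 2, with a log2 fold change of -0.99, and the adjusted p was at most 1.58e-08 in all 13 alternatives. In the table, no other gene shares exon sequence with SLC25A23.

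The other ATP-Mg/phosphate carriers did not pass the test. SLC25A24, the most abundant of them by reads, was at 56.2 ± 2.44 CPM in control and 58.8 ± 1.42 CPM in knockdown cells (log2 fold change 0.065, SE 0.0461, edgeR adjusted p = 0.331). SLC25A25 had a log2 fold change of -0.13 (SE 0.0758, edgeR adjusted p = 0.227), and its antisense partner SLC25A25-AS1, with which it shares 665 exon bases, rose by 0.50. The log2 ratio of SLC25A23 to SLC25A24 lay between -0.79 and -0.59 in controls and between -1.87 and -1.72 after knockdown, a change of -1.10 (SE 0.0798). For SLC25A23 over SLC25A25 the change was -0.91 (SE 0.0748). In both ratios all 3 knockdown libraries lay below all 3 controls. The ratios restate the fall of SLC25A23 and are not separate evidence of a change. A two-sided exact permutation test of 3 against 3 cannot give a p below 0.1, and each ratio reached it (adjusted p = 0.167 over the 5 ratios tested).

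Shares within the set likewise restate the fall of SLC25A23 and are not separate evidence of a change. SLC25A23 gave 33.9%, 30.7% and 31.4% of the summed RPKM of the ATP-Mg/phosphate carriers in controls and 19.1%, 17.9% and 18.2% after knockdown. SLC25A24 gave 52.4% ± 1.31 in control and 64.7% ± 1.57 in knockdown cells, and SLC25A25 15.5% ± 0.530 and 16.7% ± 0.895 (SD, n = 3 each). SLC25A41, the fourth member of the set, had between 2 and 6 reads per library. The share of SLC25A23 did not overlap between groups (two-sided exact permutation test, p = 0.1, adjusted p = 0.3 over the 9 shares tested).

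**Figure D3:**
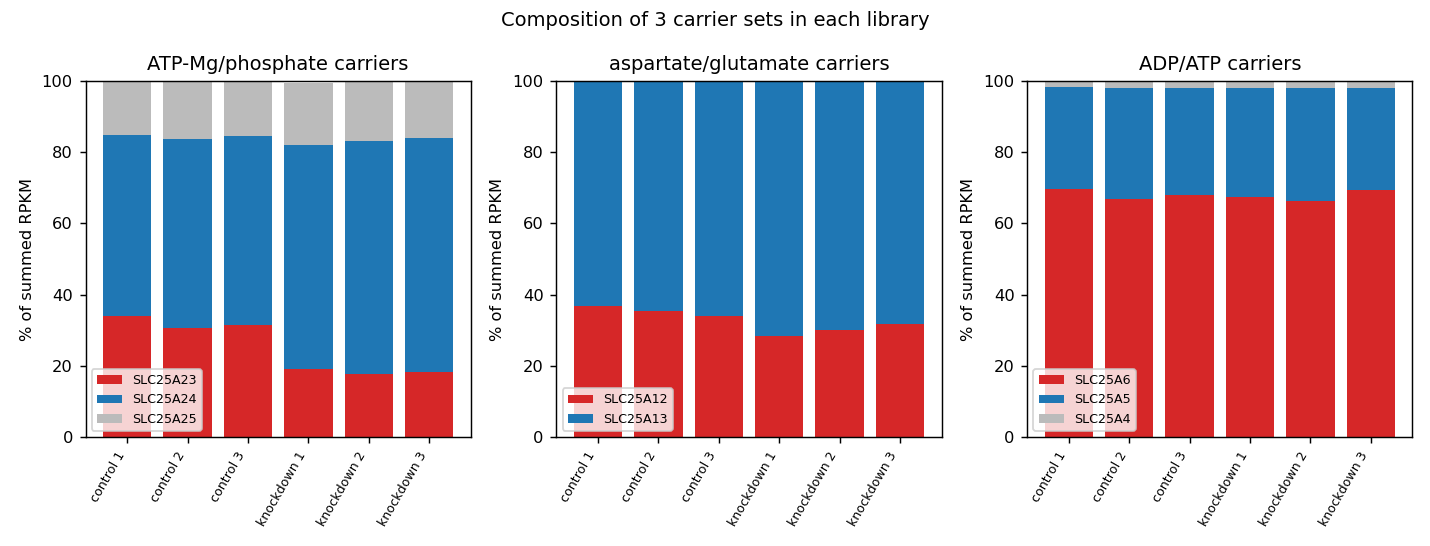
Share of the summed RPKM (y axis, %) given by each carrier of 3 sets in every library. In the ATP-Mg/phosphate set the red part, SLC25A23, goes from 32.0% on average in control to 18.4% in knockdown libraries, in the aspartate/glutamate set SLC25A12 goes from 35.5% to 30.1%, and in the ADP/ATP set the 3 parts stay within 1 percentage point on average.

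Of the 7 tested carriers of aspartate, glutamate, dicarboxylates and tricarboxylates, 3 fell, 4 did not pass and none rose. For comparison, 14.0% of all tested genes were lower and 12.7% higher, and this small group was not tested as a set. SLC25A22, which takes glutamate into the matrix with a proton (chromosome 11, 790475 to 798333), was at 10.03, 11.6 and 11.005 CPM in control and 8.20, 8.58 and 8.29 CPM in knockdown libraries. The knockdown libraries were tightly grouped below the lowest control, at 76.9% of control on average (log2 fold change -0.38, SE 0.0799, edgeR adjusted p = 0.000772). It shares 504 exon bases with PANO1 of the opposite strand, which was at 0.516 CPM.
SLC25A11, the oxoglutarate/malate exchanger of the malate-aspartate shuttle (chromosome 17, 4937130 to 4940251), was at 15.4, 18.1 and 16.4 CPM in control and 14.8, 13.8 and 14.4 CPM in knockdown libraries. The lowest control and the highest knockdown library were close together, and the change was -0.21 on the log2 scale (SE 0.0698, edgeR adjusted p = 0.0246). This call was lost without control replicate 2 (-0.15, edgeR adjusted p = 0.162), knockdown replicate 2 (-0.19, adjusted p = 0.106) or knockdown replicate 3 (-0.22, adjusted p = 0.0657). RNF167, which overlaps it by 244 exon bases on the opposite strand, had a log2 fold change of -0.20, and whether the counting used strand is not stated.
The aspartate/glutamate exchanger SLC25A12 (chromosome 2, 171784370 to 171999859) was the weakest of the 7 calls. It was at 15.7, 16.1 and 16.9 CPM in control and 12.8, 14.8 and 15.0 CPM in knockdown libraries (log2 fold change -0.19, SE 0.0704, edgeR adjusted p = 0.0473). It kept an adjusted p under 0.05 in 6 of 13 alternatives, and it shares 181 exon bases with METAP1D of the opposite strand. Leaving out control replicate 2 gave -0.20 (edgeR adjusted p = 0.0663), control replicate 3 -0.16 (adjusted p = 0.153), knockdown replicate 1 -0.12 (adjusted p = 0.289) and knockdown replicate 2 -0.22 (adjusted p = 0.0537).

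SLC25A13, the second aspartate/glutamate exchanger, known as citrin, had the opposite sign, at 21.2 ± 2.04 CPM in control and 23.7 ± 0.965 CPM in knockdown cells, but did not pass (log2 fold change 0.16, SE 0.0651, edgeR adjusted p = 0.0754). Without control replicate 3 it passed, at 0.23 (edgeR adjusted p = 0.0126). The log2 ratio of SLC25A12 to SLC25A13 changed by -0.35 (SE 0.0803), and the knockdown libraries all lay below the controls. The two-sided exact permutation test gave p = 0.1, the smallest it can give (adjusted p = 0.167 over the 5 ratios tested). SLC25A12 gave 35.5% ± 1.36 of the summed RPKM of the pair in control and 30.1% ± 1.6 in knockdown cells (SD, n = 3 each). Ratio and share restate the estimates of SLC25A12 and SLC25A13 and are not separate evidence of a change. The citrate carrier SLC25A1 was at 26.0 ± 2.09 and 24.8 ± 2.86 CPM, with a log2 fold change of -0.068 (SE 0.0714, edgeR adjusted p = 0.532). SLC25A10 (-0.32, adjusted p = 0.242) and SLC25A21 (-0.54, adjusted p = 0.339), the dicarboxylate and oxodicarboxylate carriers, had larger estimates on fewer reads, with SE 0.192 and 0.392. SLC25A10 shares 46.6% of its exon bases with RP13-1032I1.10 of the same strand.

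Among 8 tested carriers of amino acids, acylcarnitine, S-adenosylmethionine and glutathione, 2 fell and none rose. The shares over all tested genes were 14.0% lower and 12.7% higher. SLC25A38, which imports glycine for heme synthesis (chromosome 3, 39383348 to 39397351), was at 24.1, 26.0 and 26.3 CPM in control and 21.2, 20.6 and 22.6 CPM in knockdown libraries (log2 fold change -0.25, SE 0.0588, edgeR adjusted p = 0.00244). SLC25A39, which imports glutathione (chromosome 17, 44319625 to 44324870), was at 24.3, 25.0 and 24.1 CPM in control and 21.3, 20.2 and 21.1 CPM in knockdown libraries (log2 fold change -0.23, SE 0.0560, edgeR adjusted p = 0.00310). For both carriers every knockdown library was below every control library, and both calls held in all 13 alternatives. No other gene in the table shares exon bases with either.
SLC25A40, the relative of SLC25A39, was at 7.49 ± 0.567 CPM in control and 8.22 ± 1.38 CPM in knockdown cells (log2 fold change 0.14, SE 0.103, edgeR adjusted p = 0.3598). The log2 ratio of SLC25A39 to SLC25A40 overlapped between the groups (change -0.35, SE 0.149, two-sided exact permutation test p = 0.2). The carnitine/acylcarnitine carrier SLC25A20 had the highest estimate of the tested SLC25 members, 0.30, with an SE of 0.148 and an edgeR adjusted p = 0.140. It was called without control replicate 2, at 0.48 (edgeR adjusted p = 0.0248), and so was the basic amino acid carrier SLC25A29, at 0.21 (adjusted p = 0.0391). SLC25A15, SLC25A26 and SLC25A44 did not pass either.

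SLC25A30, a relative of the uncoupling proteins first described in kidney, also fell. SLC25A30 (chromosome 13, 45393316 to 45418455) was at 21.3, 18.2 and 19.5 CPM in control and 16.4, 16.4 and 14.5 CPM in knockdown libraries. All knockdown libraries lay below the lowest control, at 80.1% of control on average (log2 fold change -0.32, SE 0.0695, edgeR adjusted p = 0.00112). It shares 156 exon bases with SLC25A30-AS1, which had a log2 fold change of -0.36 (edgeR adjusted p = 0.0650), and 98 with TPT1-AS1, which had one of 0.27. The part of these opposite-strand genes in the count of SLC25A30 was not tested. The other 2 tested carriers of this kind, SLC25A14 (0.20) and SLC25A27 (0.067), did not pass.

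**Figure D4:**
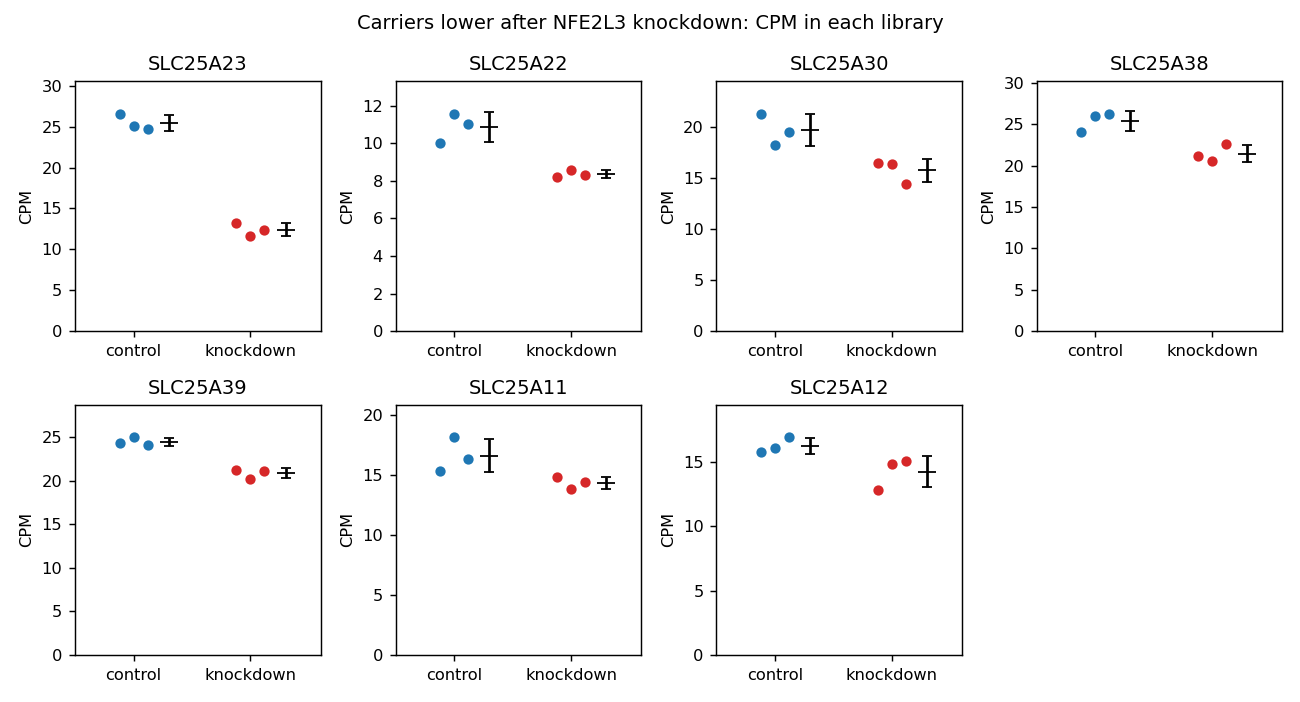
CPM (y axis, from 0) of the 7 carriers lower after NFE2L3 knockdown, with 1 point per library (blue control, red knockdown) and the mean with SD of 3 libraries in black. SLC25A23 drops to 48.8% of control, and the other 6 stay between 76.9% and 87.7% of control.

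The 4 tested genes of the ADP/ATP and phosphate carriers had small negative estimates, from -0.11 to -0.028, and none passed. SLC25A6 was at 98.4, 92.6 and 90.0 CPM in control and 86.0, 84.1 and 91.2 CPM in knockdown libraries, so that the highest knockdown library lay above the lowest control (log2 fold change -0.11, SE 0.0454, edgeR adjusted p = 0.0908). Without control replicate 3 it passed, at -0.13 (edgeR adjusted p = 0.0480). SLC25A5 had a log2 fold change of -0.070 (SE 0.0543, edgeR adjusted p = 0.377) and SLC25A4, the form of heart and muscle, one of -0.071 (SE 0.104, adjusted p = 0.674). The share of SLC25A6 in the summed RPKM of these ADP/ATP carriers was 68.3% ± 1.37 in control and 67.7% ± 1.46 in knockdown cells (SD, n = 3 each).

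No tested carrier of nucleotides, NAD, folate or coenzyme A passed. SLC25A36 came closest, at 95.3 ± 5.02 CPM in control and 88.1 ± 2.21 CPM in knockdown cells without overlap (log2 fold change -0.11, SE 0.0447, edgeR adjusted p = 0.0636). It passed without control replicate 3 (-0.15, edgeR adjusted p = 0.0213). SLC25A32 was at 62.7 ± 2.48 and 67.3 ± 4.25 CPM (log2 fold change 0.10, SE 0.0491, edgeR adjusted p = 0.129), and it overlaps DCAF13 on the opposite strand by 406 exon bases. DCAF13 was at 177.5 CPM on average over all libraries, with a log2 fold change of 0.18 (edgeR adjusted p = 0.00173). Its part in the level and change of SLC25A32 was not tested. SLC25A17, the peroxisomal member of the family, had a log2 fold change of 0.25 (edgeR adjusted p = 0.138) and was called without control replicate 2, at 0.39 (adjusted p = 0.0239). SLC25A16, SLC25A42 and SLC25A51 had estimates between 0.030 and 0.13.

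The mitoferrins, which import iron, did not pass. SLC25A28 was at 15.8 ± 0.112 CPM in control and 15.8 ± 0.552 CPM in knockdown cells (log2 fold change -0.0065, SE 0.0631, edgeR adjusted p = 0.956). SLC25A37 was at 76.7 ± 6.64 and 82.7 ± 1.65 CPM (log2 fold change 0.11, SE 0.0510, edgeR adjusted p = 0.121), and passed without control replicate 2, at 0.16 (adjusted p = 0.0240). Without control replicate 2, 5 carriers were lower and 4 higher (SLC25A17, SLC25A20, SLC25A29 and SLC25A37), and without control replicate 3, 8 were lower and 1 higher (SLC25A13). Among all genes, leaving out 1 library at a time gave 2210 to 2892 lower and 1966 to 2620 higher.
None of the 6 tested carriers grouped as without a settled substrate passed, with estimates from -0.64 to 0.26. SLC25A43, the most abundant of them by RPKM, had a log2 fold change of 0.011 (SE 0.0645). SLC25A45 had one of -0.64 on 20 to 40 reads per library (SE 0.307, edgeR adjusted p = 0.132). Counting libraries without a model, the groups did not overlap for 9 carriers that were lower and for 1 that was higher, SLC25A46, where 20.4% and 19.1% of all tested genes showed this. The 9 were the 7 called carriers with SLC25A36 and SLC25A45. Precision was limited for the 12 tested carriers under 5 CPM, whose median standard error was 0.174, beside 0.0709 over all 40.

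Other genes of mitochondrial transport were taken from lists. Of the carrier family members with other symbols, UCP2 fell, from 4.21 ± 0.331 to 3.05 ± 0.661 CPM (log2 fold change -0.46, edgeR adjusted p = 0.0128), and UCP3, a low transcript whose groups overlapped, rose from 0.515 ± 0.177 to 0.988 ± 0.336 CPM (0.93, adjusted p = 0.0252). The call of UCP2 was lost without knockdown replicate 1 (-0.39, edgeR adjusted p = 0.0710) or 3 (-0.36, adjusted p = 0.0905), and that of UCP3 without control replicate 3 (0.69, adjusted p = 0.128), knockdown replicate 2 (0.72, adjusted p = 0.154) or knockdown replicate 3 (0.84, adjusted p = 0.0981). MTCH1, an outer membrane relative, was at 0.096 (edgeR adjusted p = 0.113), MTCH2 did not pass, and UCP1 was not tested.

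Carriers are made in the cytosol and reach the inner membrane through the TOM complex, the small TIM chaperones of the intermembrane space and the TIM22 translocase. Of 15 tested genes of this route, 3 were lower and 3 higher, beside 14.0% and 12.7% of all tested genes. TIMM9, a small TIM chaperone that escorts carrier precursors, was at 17.6, 18.97 and 18.3 CPM in control and 9.38, 10.2 and 9.97 CPM in knockdown libraries. This was 53.8% of control (log2 fold change -0.89, SE 0.0685, edgeR adjusted p = 4.43e-10), a fall next in size to that of SLC25A23 among the mitochondrial genes described here. TIMM9 shares 458 of its exon bases with opposite-strand genes, of which RP11-517O13.1 had a log2 fold change of -0.87 and KIAA0586 one of 0.18. Its partner TIMM10 also fell (-0.22, edgeR adjusted p = 0.0118), as did TIMM13 (-0.42, adjusted p = 0.000160), which shares 257 exon bases with LMNB2 of the same strand. AGK, a subunit of the TIM22 translocase (0.27, adjusted p = 0.000359), TOMM22 (0.34, adjusted p = 0.000635) and TOMM20 (0.14, adjusted p = 0.0178), receptors of the TOM complex, rose. The call of TIMM10 was lost without control replicate 3 (-0.18, edgeR adjusted p = 0.0731), knockdown replicate 1 (-0.20, adjusted p = 0.0569) or knockdown replicate 3 (-0.18, adjusted p = 0.0794). That of TOMM20 was lost without control replicate 3 or any 1 of the knockdown replicates, with edgeR adjusted p from 0.0506 to 0.0631.

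Among the genes of the calcium uniporter and its neighbours, SLC8B1, the mitochondrial sodium/calcium exchanger (log2 fold change -0.37, edgeR adjusted p = 0.000508), the pore subunit MCU (-0.19, adjusted p = 0.00701) and MICU2 (-0.19, adjusted p = 0.0236) fell. The call of MICU2 was lost without control replicate 2 (-0.17, edgeR adjusted p = 0.0725), knockdown replicate 2 (-0.18, adjusted p = 0.0792) or knockdown replicate 3 (-0.16, adjusted p = 0.1202). CCDC109B, the older symbol of the pore subunit MCUB, rose by 0.27 (edgeR adjusted p = 0.00422) and shares 105 exon bases with CASP6 of the opposite strand, which was at -0.79. SMDT1, MICU3 and MCUR1 did not pass.

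Of 15 tested transporters and channels of other families, 1 was lower and 2 higher. LETM1, a cation exchanger of the inner membrane, had a log2 fold change of 0.18 (edgeR adjusted p = 0.00286), and the sideroflexin SFXN3 one of 0.23 (adjusted p = 0.00445), which DESeq2 did not call (adjusted p = 0.0961). VDAC1, the main channel of the outer membrane, was at -0.12 (edgeR adjusted p = 0.0272), and this call was lost without control replicate 1 (-0.10, adjusted p = 0.0595), knockdown replicate 1 (-0.10, adjusted p = 0.124) or knockdown replicate 3 (-0.11, adjusted p = 0.1195). The pyruvate carrier subunits MPC1 and MPC2 did not pass.
Of 20 tested enzymes that make or use the solutes of the carriers, 6 fell and none rose. They were ISCU, the scaffold of iron-sulfur cluster assembly (log2 fold change -0.37, edgeR adjusted p = 5.06e-07), GPD2, the mitochondrial glycerol-3-phosphate dehydrogenase (-0.32, adjusted p = 8.23e-05), SHMT2, which makes glycine in the matrix (-0.29, adjusted p = 1.86e-05), GOT1, the cytosolic aspartate aminotransferase of the malate-aspartate shuttle (-0.27, adjusted p = 0.000435), ALAS1, the first enzyme of heme synthesis (-0.20, adjusted p = 0.00263), and ACLY, which splits exported citrate (-0.18, adjusted p = 0.000800). DESeq2 called none higher either, and at an unadjusted p under 0.05 in edgeR, 7 were lower and 0 higher. For these other rules no share over all tested genes is given, so they add no weight to the counts. SHMT2 shares 427 exon bases with RP11-123K3.9 of the opposite strand, which was at -0.31. The other malate-aspartate shuttle enzymes, GOT2, MDH1 and MDH2, did not pass. The shares called lower or higher were read against 14.0% and 12.7% of all tested genes, and no list was tested as a set.

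**Figure D5:**
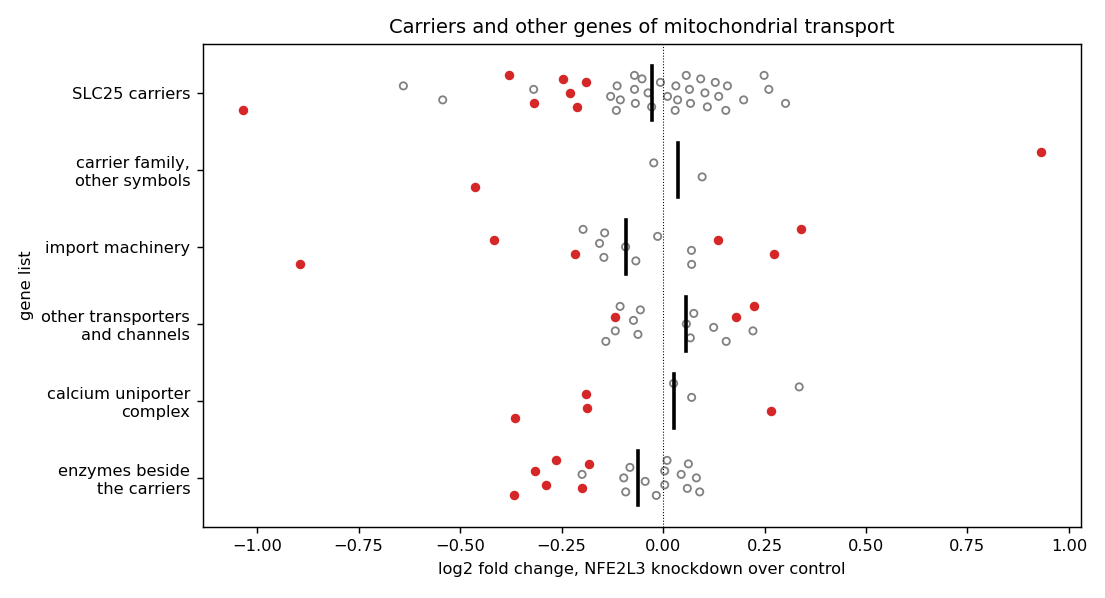
Log2 fold change (x axis, knockdown relative to control, 3 libraries per group) of the tested SLC25 carriers and of 5 lists of other mitochondrial transport genes, with 1 point per gene and 2 genes left out, filled red where edgeR gave an adjusted p under 0.05 and open grey otherwise. Black bars mark the medians of the plotted genes, from -0.092 for the import machinery to 0.057 for other transporters and channels, and vertical scatter has no meaning.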

How the data were processed

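Libraries of 786-O cells, 3 with control siRNA and 3 with NFE2L3 siRNA, were made with a stranded mRNA kit that adds molecular identifiers. According to the study's methods and processing notes, reads were trimmed by the authors (Trimmomatic 0.36), who collapsed reads that shared an identifier to consensus reads, aligned these to the Ensembl human genome (STAR 2.5.3a) and counted exon reads per gene with featureCounts (Subread 1.5.1). Raw counts were deposited with exon lengths and GRCh38 coordinates. How featureCounts treated strand is not stated in the sources used here. Of counts under 30, 67.6% to 69.9% per library were even, a pattern that counting both mates would give, so halved counts were tried as an alternative.

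CPM and RPKM were computed from the counts with TMM-adjusted library sizes in edgeR 4.0.16 (R 4.3.3). Genes kept by filterByExpr (minimum count 10) entered the edgeR quasi-likelihood test, knockdown against control, and p-values were adjusted over all 19916 tested genes. Standard errors are the fold change over the root of its F statistic. Ratios and shares of related carriers were tested by exact permutation (SciPy 1.17.1). The procedure was tested on simulated data in which few genes changed, by folds larger than those of most called carriers. It did not cover changes as small as theirs. Replicates of a group differed by more than sampling noise (chi-square per degree of freedom 4.0 to 7.55). The correlation of same-numbered libraries' deviations from their group means was -0.019 to -0.012, so no pairing by number was visible. Whether same-numbered libraries were made together is not stated. Alternatives were RLE or no scaling, DESeq2 1.42.0, no filter, a minimum of 10 counts in each library, halved counts, a replicate block and leaving out each library.

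Values are given for NFE2L3, SLC25A23, each carrier with an adjusted p under 0.05, the member of each cargo group with the highest RPKM, all members of the sets of related carriers and up to 3 genes per other list with the smallest adjusted p. SLC25A3, SLC25A10, SLC25A14, SLC25A17, SLC25A20, SLC25A21, SLC25A27, SLC25A29, SLC25A34, SLC25A45, SLC25A46, TIMM10, TOMM20, TOMM22, MCU, MICU2, GOT1, ALAS1, ACLY and the overlapping genes were added after their values were seen. The members, the cargo groups and the lists were chosen with earlier results of these data known. Results for 1 carrier and 1 gene of another list are not reported here, and both are left out of the plots but not of the tests and counts.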

Additional observations from a re-analysis of the deposited data

How the results depend on the processing

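SLC25A23, SLC25A22, SLC25A30, SLC25A38 and SLC25A39 were lower at an adjusted p under 0.05 in all 13 alternatives. SLC25A12 was not called with DESeq2 (-0.19, adjusted p = 0.0695), without a filter on low counts (-0.19, adjusted p = 0.0526 from edgeR) or with a replicate block (-0.19, adjusted p = 0.0512 from edgeR), which left 6 lower carriers each. The replicate block, for numbers that showed no visible pairing, also left no lower gene among other transporters and channels (VDAC1 was the one lost), and in all 2504 lower and 2278 higher genes. DESeq2 called 1 higher gene in that list. Without scaling, SLC25A36 joined the lower carriers (-0.13, adjusted p = 0.0384 from edgeR), and SLC25A43 changed sign (-0.0012). As a share of summed CPM, the change of SLC25A23 among ATP-Mg/phosphate carriers was -12.0 percentage points in place of -13.6.

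Leaving out 1 library at a time gave 5 to 8 lower and 0 to 4 higher carriers, 0 to 1 carriers lower by 2-fold, and medians of the family from -0.056 to -0.011. Among all genes it gave 2210 to 2892 lower and 1966 to 2620 higher. It gave 0 to 1 lower and 0 to 1 higher genes among carriers under other symbols, 2 to 4 lower and 2 to 3 higher genes of the import machinery, 0 to 1 lower genes among other transporters and 1 to 2 higher genes of the calcium uniporter. The sign changed for SLC25A1 (-0.14 to 0.022), SLC25A28 (-0.028 to 0.021), SLC25A40 (-0.0056 to 0.23) and SLC25A43 (-0.019 to 0.043), none of them called. The cause of these changes was not tested. With 3 libraries a group, the smallest change called among the carriers was 0.19 on the log2 scale.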
